A study of Mus musculus with 6 samples.

Results

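Tight junctions seal neighbouring epithelial cells to each other, and in the testis those between adjacent Sertoli cells form the main part of the blood-testis barrier. The genes described here encode the cytoplasmic scaffolds and the membrane adhesion proteins of these junctions other than the claudins: Tjp1, Tjp3, Cgn, Ocln, Marveld2, Marveld3, F11r, Jam2 and Jam3. They were found by gene symbol in the gene-level Cuffdiff table that the authors deposited, where these 9 genes are among 55331 listed and all 9 are among the 22048 that were tested. RNA was taken from whole testes of mice aged 35 days. The 3 control libraries (titled WT) came from Ptbp1fl/fl mice, which carry floxed Ptbp1 and no Cre. The 3 Ptbp1_cKO libraries (titled PTBP1_KO) came from Ptbp1fl/fl; Amh-Cre+/- mice, in which the Amh promoter drives Cre in Sertoli cells. All 6 libraries thus carry the floxed allele, the strain is given as mixed, and no group had Amh-Cre without floxed Ptbp1, so the deletion and the transgene cannot be told apart.

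At a tight junction, claudins form the paired strands that restrict flow between cells. The proteins encoded by Tjp1 and Tjp3 (ZO-1 and ZO-3) are scaffolds with PDZ domains that hold membrane proteins to the actin cytoskeleton, and cingulin, encoded by Cgn, binds the ZO proteins and actomyosin on the cytoplasmic side. Occludin (Ocln), tricellulin (Marveld2) and Marveld3 span the membrane with a MARVEL domain, tricellulin being enriched where 3 cells meet. The junctional adhesion molecules F11r (JAM-A), Jam2 (JAM-B) and Jam3 (JAM-C) are immunoglobulin-like receptors. Jam2 and Jam3 bind each other, and Jam3 is known to be needed for the polarity of spermatids, so expression of these genes in the testis is not limited to Sertoli cells. PTBP1 binds pyrimidine-rich RNA and regulates which exons are spliced into messenger RNA, and the study asked what it does in the Sertoli cell and its actin cytoskeleton.

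The measured quantity is a gene-level FPKM (fragments scaled by transcript length and by library size), which sums the isoforms of a gene. For Tjp1 this sum covers a coding exon that the annotation of the same build includes in one full-length transcript and skips in another. The exon lies at chr7:65314093-65314332 (GRCm38, minus strand, GENCODE M21), is 240 bases long and adds 80 codons without shifting the reading frame. The transcript with it has 28 exons and the transcript without it 27. Both are shown 5′ to 3′ on the transcript strand, with the skipped exon in capitals and 20 bases of each neighbouring exon in lower case, because a change in their ratio would not show in the gene-level values.
Tjp1 with the exon: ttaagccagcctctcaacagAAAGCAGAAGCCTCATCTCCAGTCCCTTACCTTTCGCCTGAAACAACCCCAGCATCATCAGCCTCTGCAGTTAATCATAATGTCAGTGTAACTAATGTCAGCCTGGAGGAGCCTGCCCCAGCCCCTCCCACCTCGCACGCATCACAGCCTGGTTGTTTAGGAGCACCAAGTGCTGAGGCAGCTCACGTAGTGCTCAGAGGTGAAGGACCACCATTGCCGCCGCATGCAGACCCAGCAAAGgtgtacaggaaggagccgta
Tjp1 without the exon: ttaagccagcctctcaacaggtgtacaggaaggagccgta
The letters TCTT, a short form of the pyrimidine-rich sequence that PTBP proteins bind in RNA, were searched on the transcript strand and occurred 0 times in this exon. Of 2885 internal coding exons within 10 bases of its length, 57.4% held them. The introns beside the exon were not searched, and the match count describes these letters only.

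Scaffold genes held the highest and the lowest level among the 9, and none differed between groups by the deposited test. Tjp1 (ENSMUSG00000030516.14, chromosome 7, 65296165 to 65527781, mm10) stood at 40.6 FPKM in control and 39.8 FPKM in Ptbp1_cKO. Its level was above that of 85.6% of tested genes, and its value in Ptbp1_cKO was 0.979 times that in control. In the authors' deposited table its log2 fold change was -0.03, with p = 0.901 and q = 0.999 by Cuffdiff's test. Cgn (chromosome 3, 94760069 to 94786492) stood at 18.2 FPKM in control and 17.3 FPKM in Ptbp1_cKO (log2 fold change -0.08, q = 0.999, authors' deposited table). Both abundant scaffolds were thus within 6% of equality between the groups. Tjp3 (chromosome 10, 81273207 to 81291581) was the least abundant, at 0.223 FPKM in control and 0.310 FPKM in Ptbp1_cKO. Its ratio of 1.39 was the largest among the 9 genes, but its p was 0.455 and its q 0.999 in the authors' deposited table.

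The Tjp3 value carries a limit of its own. The last 40 bases of Tjp3 overlap the end of Apba3, which is transcribed towards it from the opposite strand, and the authors' table places both in a single locus. Apba3 stood at 12.1 FPKM in control and 13.0 FPKM in Ptbp1_cKO, 54.2 times and 41.8 times the Tjp3 level. The libraries were stranded, but whether strand was used in the authors' counting is not given in the sources used here, so reads at the overlap may be shared. Tjp3 also lies 1.41 Mb from Ptbp1 on chromosome 10, the gene that is floxed in all 6 libraries.

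Occludin had the smallest p among the 9 genes, and the genes of its MARVEL group did not all lie on the same side. Ocln (ENSMUSG00000021638.12, chromosome 13, 100496507 to 100552718), the membrane protein whose loss in mice is known to lead to atrophy of the testis, stood at 2.10 FPKM in control and 2.62 FPKM in Ptbp1_cKO. The ratio was 1.25, or 0.32 on the log2 scale, with p = 0.0649 and q = 0.614 in the authors' deposited table. Of all tested genes, those under 1 FPKM included, 10.6% had a smaller deposited p and 22.4% a larger log2 fold change in either direction. Among tested genes reaching 1 FPKM in a group, the middle 90% of log2 fold changes ran from -0.359 to 0.378. The Ocln value lay inside that range, towards its upper end. Marveld2 (chromosome 13, 100595957 to 100616971) stood at 0.613 FPKM in control and 0.678 FPKM in Ptbp1_cKO (q = 0.999, authors' deposited table). Marveld3 (chromosome 8, 109947914 to 109962203) stood at 0.681 FPKM in control and 0.616 FPKM in Ptbp1_cKO (q = 0.999 in the same table). Ocln and Marveld2 are encoded on the same strand with 43238 bases between them, an interval in which the annotation places a lincRNA and a processed pseudogene only. Ocln was 3.42 times as abundant as Marveld2 in control and 3.87 times in Ptbp1_cKO. Ocln made up 61.8% of the summed FPKM of the MARVEL group in control and 67.0% in Ptbp1_cKO, a shift that could not be tested with 1 value per group.

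Among the junctional adhesion molecules, F11r was higher in Ptbp1_cKO while Jam2 and Jam3 were slightly lower, none of them past the test. F11r (ENSMUSG00000038235.4, chromosome 1, 171437535 to 171464603), the receptor of epithelial and endothelial junctions, stood at 6.24 FPKM in control and 7.24 FPKM in Ptbp1_cKO. The ratio was 1.16, with p = 0.0968 and q = 0.696 in the authors' deposited table. Jam2 (chromosome 16, 84774123 to 84825928), the partner of Jam3 across cell contacts, stood at 15.5 FPKM in control and 14.8 FPKM in Ptbp1_cKO (log2 fold change -0.07, q = 0.999, authors' deposited table). Jam3 (chromosome 9, 27097384 to 27155421) stood at 9.37 FPKM in control and 9.20 FPKM in Ptbp1_cKO (log2 fold change -0.03, q = 0.999, authors' deposited table). The summed level of the group was 31.1 FPKM in control and 31.2 FPKM in Ptbp1_cKO. Within that sum the share of F11r was 20.1% in control and 23.2% in Ptbp1_cKO, and that of Jam2 49.8% and 47.3%.

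**Figure D1:**
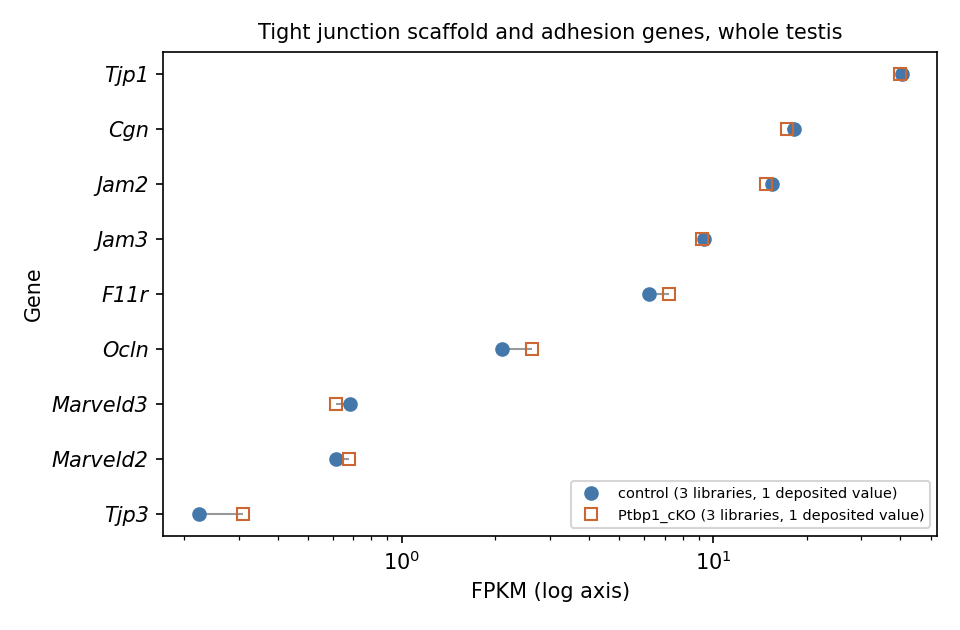
The plot of levels shows the deposited FPKM of each gene on a log axis, with 1 filled circle for control and 1 open square for Ptbp1_cKO, each combined by the authors from 3 libraries. Genes run from Tjp1 at 40.6 and 39.8 FPKM down to Tjp3 at 0.223 and 0.310 FPKM, and the marks of a gene lie close together beside the distance between genes.

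The order of the levels was Tjp1, Cgn, Jam2, Jam3, F11r, Ocln in both groups, followed by Marveld3 and Marveld2 and then Tjp3. Marveld3 was above Marveld2 in control and below it in Ptbp1_cKO, and Cgn exceeded Jam2 by 1.18 times in control and 1.17 times in Ptbp1_cKO. The table holds no spread between libraries, so whether such neighbours in the order differ beyond it is not known. Across the 9 genes the level spanned 182.3-fold in control and 128.1-fold in Ptbp1_cKO, against at most 1.39-fold between groups for any one gene. In both groups 6 of the 9 had an FPKM of at least 1.

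None of the 9 genes passed Cuffdiff's threshold of q under 0.05 in the authors' deposited table, in either direction. Over all tested genes 1.16% passed it, 0.458% as higher and 0.703% as lower in Ptbp1_cKO. At that background 0 of 9 is not a result about these genes. At an unadjusted p under 0.05 the count was also 0 of 9, against 8.98% of tested genes. With a p computed from the deposited statistic under a normal distribution, 0 of 9 passed either after adjustment, against 0.0862% of tested genes, or before it. By FPKM, 4 genes were higher (Tjp3, Ocln, F11r and Marveld2) and 5 lower in Ptbp1_cKO, while 50.9% of all tested genes were higher. The median log2 fold change of the 9 was -0.03, beside 0.01 over all tested genes. The 4 most abundant genes were all lower, by at most 0.08 on the log2 scale, whereas 4 of the 5 less abundant were higher. A test that misses its threshold does not show that a level was equal.

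The precision that sequencing depth gives could be read from the steps in which low FPKM values move. Taking a group value as the mean over its libraries, 1 FPKM at an effective length of 1 kb stood for 226 fragments in control and 203.9 in Ptbp1_cKO. With the length of the longest coding transcript, the Tjp1 values rested on about 62286 fragments in control and 54989 in Ptbp1_cKO, and those of Tjp3 on about 139 and 174. For Ocln the figures were about 1797 and 2024, giving a ratio between 1.17 and 1.33 at 95% confidence (exact Clopper-Pearson interval of the share of fragments). For F11r, with about 3185 and 3324 fragments, the interval of the ratio was 1.10 to 1.22. Marveld2 (0.958 to 1.27), Marveld3 (0.768 to 1.06) and Jam3 (0.936 to 1.03) had intervals of the ratio that include equality, and the other 6 genes did not. These intervals cover counting error only and leave out the spread between libraries, the scaling of the libraries and the assignment of reads to isoforms. For Ocln, F11r and Tjp3 (1.11 to 1.75) the whole interval of the ratio lay above equality, and for Tjp1 (0.968 to 0.991), Cgn (0.926 to 0.966) and Jam2 (0.931 to 0.977) it lay below. In these 6 genes the difference was larger than counting error alone, except that the Jam2 interval included equality when a shorter coding transcript set the length.

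**Figure D2:**
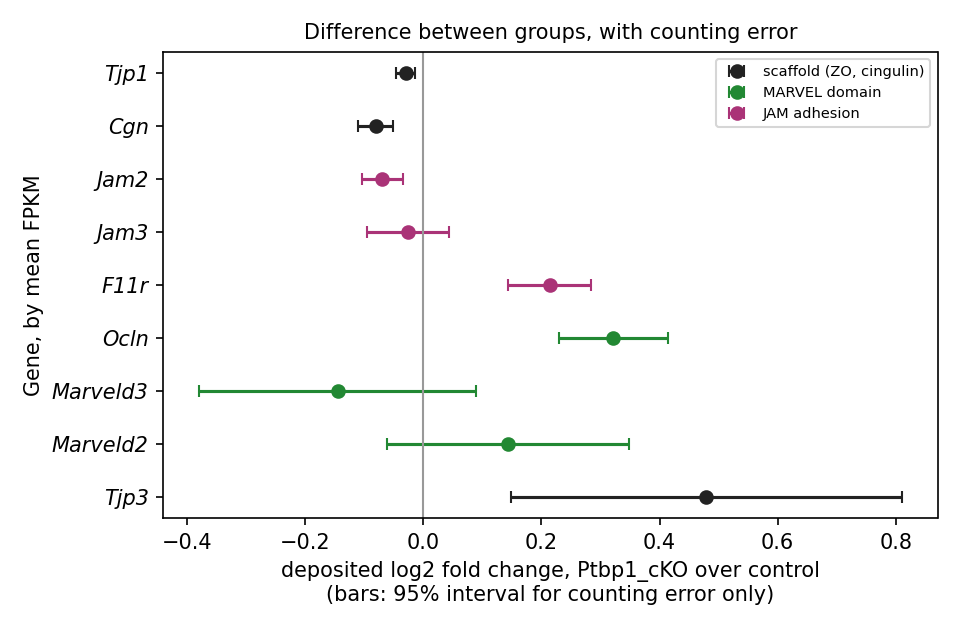
The plot of fold changes shows the deposited log2 fold change of each gene, Ptbp1_cKO over control, ordered by mean FPKM, with bars for the 95% interval of counting error only. The bar is narrowest for Tjp1 at -0.03 and widest for Tjp3 at 0.48. No gene passed q under 0.05 although 6 bars leave out 0, a count without a share over all tested genes.

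Other tight junction genes, listed by role, gave 1 call in each of a pair of lists, Vsig1 and Cldn34b1. Both were lower in Ptbp1_cKO, beside 0.703% of all tested genes called lower. Which cells of the whole testis express the listed genes was not tested. Of 42 further junction symbols, 40 matched and 39 were tested. The unmatched symbols, Pals1 and Mllt4, are other names of Mpp5 and Afdn, which are in the list and were tested. Vsig1, an immunoglobulin-like membrane protein related to the JAMs, fell from 128.4 to 98.8 FPKM (q = 0.0359, authors' deposited table), and none passed as higher. Their median log2 fold change was 0.05. By the mean of both groups the most abundant were the transcription factor Ybx3 (ZONAB, a partner of ZO-1) at 1638 FPKM in control and 1691 FPKM in Ptbp1_cKO, the guanine nucleotide exchange factor Arhgef2 (144.1 and 161.5 FPKM), which cingulin binds, and Sympk (123.0 and 133.3 FPKM), a polyadenylation factor also found at tight junctions. Among 12 tested claudins Cldn34b1 fell from 7.70 to 4.69 FPKM (q = 0.00848, authors' deposited table), and the median log2 fold change was 0.12. With the normal p from the statistic neither call passed. Cldn11, the claudin of Sertoli cell junctions, stood at 28.1 and 32.2 FPKM (q = 0.663, authors' deposited table), 13.4 times the Ocln level in control and 12.3 times in Ptbp1_cKO. Cldn3, another claudin known from Sertoli cells, stood at 2.87 and 4.65 FPKM (q = 0.999 in the same table) and Cldn12 at 2.99 and 3.63 FPKM (q = 0.71).

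Cgnl1 (paracingulin), a paralog of Cgn chosen after its values were seen, stood at 27.2 FPKM in control and 27.6 FPKM in Ptbp1_cKO, with q = 0.999 in the authors' deposited table. The Cgn level was 0.67 and 0.625 times its own.

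**Figure D3:**
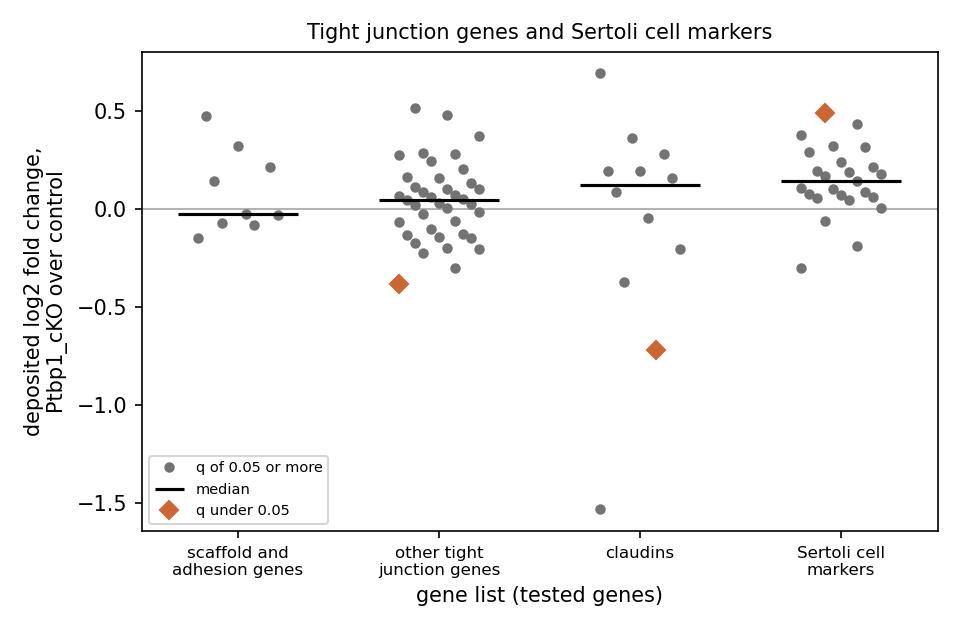
The plot of gene lists shows the deposited log2 fold change of each tested gene in 4 lists, with a line at the median and diamonds for genes at q under 0.05. The scaffold and adhesion genes have a median of -0.03 and no diamond, the other junction genes 0.05, the claudins 0.12 and the Sertoli cell markers 0.14.

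Whole testis mixes Sertoli cells with germ, Leydig, myoid, vascular and immune cells, and in such a sample fewer cells of a type and less RNA per cell cannot be told apart. The targeted gene Ptbp1 stood at 49.97 FPKM in control and 46.66 FPKM in Ptbp1_cKO (q = 0.999, authors' deposited table), which does not check the labels, since cells without Amh-Cre activity express it too and the loss of an exon need not lower a gene-level FPKM. Of 25 Sertoli cell markers 22 had a higher FPKM in Ptbp1_cKO, 1 passed the threshold (Clu, 853.6 to 1199 FPKM, q = 0.00848, authors' deposited table), 7 had an unadjusted p under 0.05, and none was at 0. Their summed level was 2142 FPKM in control and 2442 FPKM in Ptbp1_cKO. Without Clu the other 24 summed to 1288 FPKM in control and 1243 FPKM in Ptbp1_cKO. Ctsl (396.6 FPKM in control, 322.5 FPKM in Ptbp1_cKO), Cst9 (200.6 and 192.9) and Cst12 (146.6 and 128.7) were the 3 lower markers. These abundant genes set the direction of the sum without Clu, and each of the remaining markers was higher. The median log2 fold change of the 25 markers was 0.14, which Ocln, F11r and Tjp3 exceeded. Tjp1, Cgn, Jam2, Jam3 and Marveld3 lay below it, with Marveld2 equal to it at this precision. Of 9 endothelial markers, from cells that also express F11r, 8 were higher by FPKM and 0 passed, with 1 at an unadjusted p under 0.05, and the summed level was 10.1 FPKM in control and 11.7 FPKM in Ptbp1_cKO. Of 12 markers of the epididymis and duct epithelium 9 were tested, 7 were higher by FPKM, 3 had an unadjusted p under 0.05, and Lcn8 was at 0 in both groups. Crisp1, a secreted protein of the epididymis, rose (0.0482 FPKM in control, 5.90 FPKM in Ptbp1_cKO), as did Spink8 (1.07 and 4.75 FPKM; q = 0.00848 for both, authors' deposited table), whereas Epcam, the most abundant of the list, stood at 32.9 and 32.2 FPKM. The list summed to 39.4 FPKM in control and 49.9 FPKM in Ptbp1_cKO, and without Crisp1 and Spink8 to 38.3 and 39.2 FPKM. Epcam made up most of these last sums, so they say little about the rest of the list. All 10 leukocyte markers were higher by FPKM, 5 had an unadjusted p under 0.05 and 2 passed (C1qb and Fcer1g), with sums of 51.4 and 69.9 FPKM. Of 8 spermatocyte markers 7 were lower by FPKM and 0 passed, by Cuffdiff's test or at an unadjusted p under 0.05, with sums of 817.7 and 743.7 FPKM. Of 10 spermatid markers 6 were higher by FPKM and 0 passed, with 4 at an unadjusted p under 0.05 and sums of 46913 and 49595 FPKM. With the normal p from the statistic, Crisp1 and Spink8 were the only calls in these lists. The part of any of these cells in the Ocln and F11r values was not tested.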

How the data were processed

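Polyadenylated RNA of whole testis was sequenced from stranded libraries, per the labels' protocols. Cuffdiff and Cufflinks, with STAR 2.6.1d, Trimmomatic 0.38, bcl2fastq 2.20 and the build mm10, are listed per the submitters' processing notes; for Cuffdiff neither version nor settings, and for the annotation no release, is given in the sources used here. The deposited table holds 1 FPKM per group, which the authors combined from 3 libraries, and, per the file headers, the log2 fold change, a test statistic (a signed score), and the p-value and q-value deposited by the authors. No SD or left-out replicate could be computed from it. It lists no library depths, and these were only estimated, from the steps of low FPKM values, without matching a depth to a named library. The labels do not say whether libraries came from separate animals, so p-values may measure technical spread only.

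Calls are those of the deposited Cuffdiff test with q under 0.05. Benjamini-Hochberg adjustment of the deposited p gave the deposited q within 5.2e-07. The members, lists and tests were chosen with earlier results of these data known. Named genes were the members, the 4 most abundant tested genes and every call of each junction list, the most abundant genes and every call of each cell type list (reported in part), Ptbp1, and genes sharing a member's locus and tested. The lower Sertoli cell markers were named after their values were seen. With 1 value per group no gene could be named by likeness of pattern. Leydig (8 tested, 3 higher by FPKM, 1 call), myoid (7, 6 higher, 0 calls) and spermatogonial (8, 5 higher, 2 calls) lists were also counted. The calls, Insl3 for Leydig and Kit and Uchl1 for spermatogonial markers, were all higher in Ptbp1_cKO. A gene withheld from the text was left out of the lists and is not reported here.

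Positions are 1-based, from GENCODE M21 (GRCm38); 98.65% of deposited identifiers matched with their version, and 8 of the 9 members did (Cgn was matched by symbol). Fragment weights were fitted on single-transcript, single-exon genes of 1500 to 6000 bp, with 260 bp deducted from the length in control and 266 bp in Ptbp1_cKO; 99.53% of 430 and 100% of 428 low values lay within 1% of a sum of 1 or 2 steps. The fit was tested on simulated data with known depths. The normal p was tested only on statistics drawn from a normal distribution. That simulation cannot show whether the deposited statistic follows a normal distribution, and the deposited p and the normal p differ. Python 3.11.15, scipy 1.17.1 and pandas 2.3.3 were used.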

Additional observations from a re-analysis of the deposited data

How the results depend on the processing

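Over the 9 log2 fold changes, none of the 15 values recomputed with another p or adjustment passed the threshold. Under another scaling or pseudocount, which gives no p, 35 of 36 kept their direction, but for most of them this was fixed in advance. A pseudocount cannot change a direction. The median of tested genes (-0.005267) was smaller in size than the smallest of the 9 log2 fold changes (0.0258 without its sign). Only the median of the Sertoli cell markers was large enough to reverse a direction. The exception was Marveld2, whose log2 fold change relative to the median of the Sertoli cell markers was -0.000225. With that median (0.14) as the reference, Ocln stood at 0.18, F11r at 0.07 and Tjp1 at -0.17. The 6 counts of genes called were recomputed under 3 settings: a q under 0.10 and adjustment over the 15793 tested genes that reach 1 FPKM in a group changed none, and with the normal p from the statistic 0 other junction genes and 0 claudins were lower, in place of 1 each. The median difference of log2(FPKM + 1) over the 9 genes was -0.02, and -0.03 with a pseudocount of 0.1 or for the 6 genes with an FPKM of at least 1. Chosen after seeing the data, a shorter coding transcript in the fragment estimate left 5 rather than 6 genes whose counting interval leaves out 0. Jam2 is the one lost, and no share over all tested genes was computed for either count. No paired analysis was possible because the table holds 1 value per group and no column carries a replicate number, and no replicate could be left out for the same reason. Tjp3, Marveld2 and Marveld3, under 1 FPKM, have the widest counting intervals of the 9 genes.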

Other observations

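Size of a difference and the deposited statistic were not in a fixed relation among the 9 genes. The log2 fold change per unit of the statistic was 0.196 for Cgn, 0.23 for F11r, 0.236 for Jam3, 0.266 for Jam2, 0.311 for Ocln, 0.415 for Marveld3 and 0.426 for Marveld2, but 0.466 for Tjp1 and 1.59 for Tjp3. Tjp1 rested on the most fragments of the 9 genes and Tjp3 on the fewest. Tjp1 has 3 coding transcripts in the annotation, Tjp3 3, Cgn 4, Ocln 5, and F11r and Jam3 1 each. How Cuffdiff scaled its statistic is not given in the sources used here, and the relation to depth or isoform number was not tested.

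The deposited p and the normal p from the statistic differed most in rank for Tjp3. Its deposited p of 0.455 was the third smallest of the 9 genes, while its normal p of 0.763 was the sixth. For Ocln these were 0.0649 and 0.301, and for F11r 0.0968 and 0.352.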
